A study of Mus musculus with 5 samples.

Results

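The genes described here encode the scavenger and endocytic receptors of the liver sinusoidal endothelial cell (LSEC), with a trafficking protein, a secreted nuclease and a secreted protein with a zona pellucida domain of the same cell. They are Stab1, Stab2, Lyve1, Mrc1, Clec4g, Fcgr2b, Gpr182, Oit3, Ehd3 and Dnase1l3. A probe was taken when the gene name in the scanner files was one of these 10 names, which gave 18 probes of 56605 on the array and 10 genes of 37074 gene names. RNA from mouse cells was hybridised to 60-mer arrays in 5 conditions, with 1 array per condition. LSECs came from the liver. Tumor endothelial cells (TECs) came from tumors grown in the liver after inoculation of HAK1B, Hepa1-6 or KYN2 cells, and cultured Hepa1-6 cells were the fifth condition. The HAK1B and KYN2 lines are human hepatomas, whereas the Hepa1-6 line is of mouse origin. The labels give the strain C57BL/6 for the LSECs and all 3 TECs and C57L for the cultured cells. The methods describe female 6-week-old C57BL/6 and nude BALB/c nu/nu mice, without saying which host carried which tumor, and their paragraph on the arrays names Huh-7 where the labels name HAK1B. No drug or microRNA treatment is given for these 5 samples. In the methods, CD31 magnetic beads isolated endothelial cells from digested tumors, so a sample can hold other cells that carry CD31 or that stayed on the column. The number of mice behind each array is not given in the labels.

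LSECs line the sinusoids of the liver and clear macromolecules from the blood by receptor-mediated endocytosis. The stabilins, the mannose receptor and the low-affinity Fc receptor bind hyaluronan, collagen fragments, mannose-bearing glycoproteins and immune complexes, carry them into clathrin-coated pits and return to the surface after the cargo has gone on to lysosomes. This set of receptors separates the sinusoidal cell from most other endothelia, and GATA4 is a transcription factor known for keeping the sinusoidal program on.

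Promoters are printed for 4 of the genes that were below LSECs in every TEC array: Ehd3, Clec4g and Stab2, which were far below, and Mrc1, which was lower by a smaller amount that was nearly the same in every TEC array. Each runs from 250 bases before the transcription start to 50 bases after it, on the gene's strand, in RefSeq's GRCm38.p6. Capitals mark the letters AGGAAG, a core of the ETS family of endothelial transcription factors, or their reverse complement CTTCCT. Ehd3 is at chr17:73804591-73804890 (+), Clec4g at chr8:3720602-3720901 (-), Stab2 at chr10:87007893-87008192 (-) and Mrc1 at chr2:14229164-14229463 (+).
Ehd3 promoter: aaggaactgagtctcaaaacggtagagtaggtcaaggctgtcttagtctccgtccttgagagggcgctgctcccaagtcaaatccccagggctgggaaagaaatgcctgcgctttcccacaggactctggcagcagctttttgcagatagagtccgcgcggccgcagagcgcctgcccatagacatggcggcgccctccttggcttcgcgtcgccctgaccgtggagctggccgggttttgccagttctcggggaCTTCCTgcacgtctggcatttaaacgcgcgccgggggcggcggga
Clec4g promoter: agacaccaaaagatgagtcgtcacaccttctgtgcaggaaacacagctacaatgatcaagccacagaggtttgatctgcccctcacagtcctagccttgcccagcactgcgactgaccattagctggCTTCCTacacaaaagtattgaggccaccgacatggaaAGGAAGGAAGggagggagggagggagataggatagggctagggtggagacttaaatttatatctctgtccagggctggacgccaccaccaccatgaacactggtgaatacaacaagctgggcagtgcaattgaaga
Stab2 promoter: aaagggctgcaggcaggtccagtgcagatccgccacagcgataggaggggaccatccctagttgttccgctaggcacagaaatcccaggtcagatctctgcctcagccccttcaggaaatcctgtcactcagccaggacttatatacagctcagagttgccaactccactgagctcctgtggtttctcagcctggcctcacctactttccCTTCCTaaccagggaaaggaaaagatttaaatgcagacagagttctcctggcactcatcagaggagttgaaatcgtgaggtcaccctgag
Mrc1 promoter: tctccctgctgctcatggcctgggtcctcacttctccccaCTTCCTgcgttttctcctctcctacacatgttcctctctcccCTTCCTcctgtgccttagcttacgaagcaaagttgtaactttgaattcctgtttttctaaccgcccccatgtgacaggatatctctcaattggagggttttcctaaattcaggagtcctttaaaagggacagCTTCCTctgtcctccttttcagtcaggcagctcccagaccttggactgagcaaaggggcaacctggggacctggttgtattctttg

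The promoter table held 6 of the 10 genes, Stab1 and Fcgr2b besides those printed, so a window without AGGAAG is not among those shown. On both strands, AGGAAG was present in 5 of the 6 windows, all but that of Fcgr2b, and in 35.4% of the 32851 windows of the same 300 bases in the table. Ehd3 and Stab2 held 1 match each, Clec4g and Mrc1 held 3 each, and a pair of the Clec4g matches overlapped by letters they share. GATAA (reverse complement TTATC), a form of the core of the GATA family, was in 0 of the 6 windows and in 25.4% of all windows. Other forms of that core, such as GATAG, were not counted, and GATAG stands in the printed windows of Ehd3, Clec4g and Stab2. The letters TGCTGA (reverse complement TCAGCA), part of the site of the MAF family, were in the Stab1 window alone, against 19.5% of all windows. A match is a description of letters and not of binding, and a window without one says nothing about the factor. The promoters of Lyve1, Gpr182, Oit3 and Dnase1l3 are not printed.

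Probe sequences are shown for Oit3 and Fcgr2b, since each of these genes was also read by a second probe elsewhere in its transcript, which can be set beside the brightest one. The array design places the Oit3 probe on mm9 at chr10:58891099-58892289 (-), a span of 1191 bases for 60 bases of probe, as a probe across an exon junction has. The Fcgr2b probe lies at chr1:172895833-172895892 (-). No letters are in capitals because no part of a probe was marked.
Oit3 probe A_51_P214557: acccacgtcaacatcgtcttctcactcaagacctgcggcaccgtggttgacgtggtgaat
Fcgr2b probe A_52_P545613: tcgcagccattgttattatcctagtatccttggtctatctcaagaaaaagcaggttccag

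Between 44.6% (cultured cells) and 78.1% (Hepa1-6 TECs) of all probes were well above background on an array, the scanner software's flag for a signal clear of the local background. The median coefficient of variation of repeated spots was 2.62% to 3.11%, and no probe was saturated. The number of arrays limits the precision, and no value below has a replicate. All 3 TEC arrays shared 1 slide, while LSECs and cultured cells each had another slide, so slide and cell type cannot be told apart. As a check of the endothelial labels, all 20 pan-endothelial genes were well above background on all 4 endothelial arrays and 5 of 20 on the cultured cells. Log2 signal of Cdh5, the endothelial cadherin, was 14.16 in LSECs, 12.06 in HAK1B TECs, 11.93 in Hepa1-6 TECs, 13.10 in KYN2 TECs and 2.89, not well above background, in cultured cells. Markers of other cells were present on all 4 endothelial arrays. All 17 macrophage and Kupffer cell genes were well above background there, and of the 14 neutrophil genes 9 were so in LSECs, 14 in HAK1B TECs, 14 in Hepa1-6 TECs and 12 in KYN2 TECs.

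All 18 probes of the 10 genes were well above background on all 4 endothelial arrays, and the LSEC array held the highest signal of the 5 for 9 of the 10 genes. Levels are log2 of the background-subtracted spot signal after quantile normalization over the 5 arrays, a difference of 1 is a doubling, and a gene with several probes is read from its brightest one. Compared with LSECs, the median of the 10 genes was -4.37 on the log2 scale in HAK1B TECs, -3.41 in Hepa1-6 TECs and -3.05 in KYN2 TECs, where the median of all genes was 0.00, 0.09 and -0.05. In HAK1B TECs 6 of the 10 genes were called lower, where 3.94% of 20298 genes were. In Hepa1-6 TECs the count was 5 of 10 against 2.04% of 26322 genes, and in KYN2 TECs 6 of 10 against 2.87% of 19819 genes. The Hepa1-6 count was 9 of 10 with the background corrected by normexp, where 760 of the 26322 genes were called lower. It was also 9 with a ratio of 0.66 or of 0.25 alone, without the Z-score, where 8138 and 2290 genes were lower. The KYN2 count was 4 with scaling to the 75th percentile, where 603 of the 19819 genes were called lower. None of the 10 was called higher in any TEC array, where 3.11%, 4.54% and 3.64% of genes were. A call is the rule of size of the study's methods, a ratio of at least 1.5 or at most 0.66 together with a Z-score over all probes kept of at least 2 or at most -2. It needed a log2 difference of -2.79, -3.30 and -2.76 in the 3 comparisons, and it is no test, as there is 1 array on each side. Calls use the signal as read, also where a probe was not well above background on 1 array of the pair, so such a call can rest on signal near background.

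**Figure D1:**
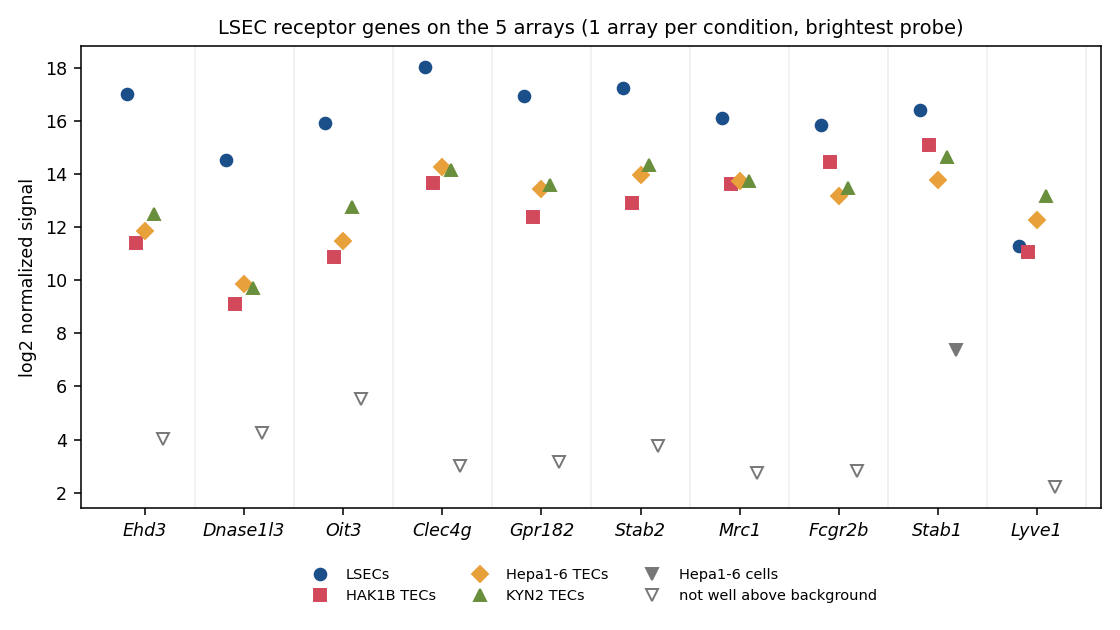
Log2 normalized signal (vertical axis) of the brightest probe of each of the 10 genes on the 5 arrays, 1 array per condition, with genes ordered from the lowest to the highest mean difference of the TECs from LSECs. Open triangles are cultured Hepa1-6 cells not well above background. LSECs (circles) are highest for every gene but Lyve1, where KYN2 TECs reach 13.17 and LSECs 11.29.

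Clec4g, Gpr182, Oit3, Ehd3 and Dnase1l3 were called lower in all 3 TEC arrays, as were 1.0% of the 19310 genes kept in all 3 comparisons. A ratio of 0.66 or less in all 3 was found for 9 of the 10 genes and for 17.8% of genes, and a lower signal of any size for the same number, against 35.8% of genes. Lyve1 was the exception. These are cell preparations measured in bulk, so fewer cells of a type and less RNA per cell cannot be told apart.

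**Figure D2:**
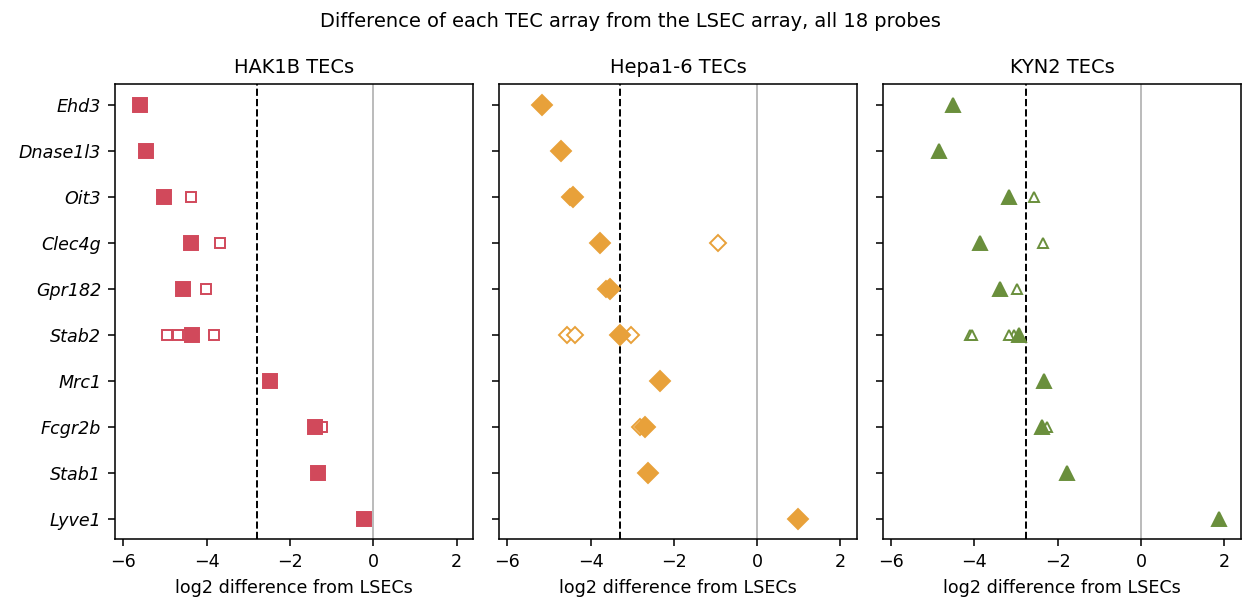
Log2 difference of each TEC array from the LSEC array (horizontal axis) for all 18 probes, with 1 panel per TEC array, filled symbols for the brightest probe of a gene and open symbols for its other probes. The dashed line is the limit of the rule of size, at -2.79, -3.30 and -2.76. Ehd3 and Dnase1l3 lie farthest to the left and Lyve1 farthest to the right in every panel.

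Stab2, stabilin-2, is the main clearance receptor for hyaluronan on the sinusoidal cell. Its log2 signal was 17.26 in LSECs, 12.90 in HAK1B TECs, 13.98 in Hepa1-6 TECs, 14.33 in KYN2 TECs and 3.76 in cultured cells, on the probe at mm9 chr10:86303982-86304041 (-). The TEC arrays were all far below the LSEC array and far above the cultured cells, with HAK1B TECs lowest of the 3. Relative to LSECs the differences were -4.36, -3.29 and -2.93, a mean of -3.53 ± 0.74 (SD, n = 3 TEC arrays). HAK1B and KYN2 TECs were called lower, while the Hepa1-6 value lay just outside its limit of -3.30. Stab2 had 4 more probes, from chr10:86304198-86304257 to chr10:86455257-86455316, and its 5 probes gave differences of -4.94 to -3.82 in HAK1B TECs, -4.56 to -3.02 in Hepa1-6 TECs and -4.10 to -2.93 in KYN2 TECs. All 5 were called in HAK1B and KYN2 TECs and 3 of 5 in Hepa1-6 TECs, so the readings along the gene were all on the same side, and the call in Hepa1-6 TECs differed by probe.

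Stab1, stabilin-1, is the paralog that takes up the matrix protein SPARC and modified lipoproteins and is also found on macrophages. Its log2 signal was 16.42 in LSECs, 15.09 in HAK1B TECs, 13.79 in Hepa1-6 TECs, 14.64 in KYN2 TECs and 7.37 in cultured cells (mm9 chr14:31952288-31952347, -). The differences of -1.32, -2.63 and -1.78 (mean -1.91 ± 0.66, SD, n = 3) were not past the limit in any TEC array. The order of the TEC arrays was not that of Stab2: HAK1B TECs were the highest of the 3 for Stab1 and the lowest for Stab2. The probe was the only brightest probe of the 10 genes well above background in cultured cells.

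Lyve1, a hyaluronan receptor of lymphatic vessels that LSECs and some macrophages also carry, was not lower in every TEC array. Its single probe (mm9 chr7:117994171-117994230, -) read 11.29 in LSECs, 11.07 in HAK1B TECs, 12.26 in Hepa1-6 TECs, 13.17 in KYN2 TECs and 2.20 in cultured cells. HAK1B TECs were close to LSECs and the other TEC arrays were above them, by -0.22, 0.97 and 1.88 in the order given. None was called against LSECs, with a higher limit of 2.86, 3.51 and 2.76. The lymphatic markers did not show 1 direction, with 2, 3 and 2 of 7 called lower and 1, 0 and 1 higher. Prox1, the transcription factor of lymphatic endothelium, differed by -0.22, 1.75 and -0.99. Flt4, Ccl21a and Sema3d had means below 0 over the TEC arrays (-2.54, -3.23 and -4.82), and Pdpn had a mean of 4.6. All 7 lymphatic genes were well above background on the 4 endothelial arrays, and their summed linear signal was 8239 in LSECs, 13733 in HAK1B TECs, 1338 in Hepa1-6 TECs and 5207 in KYN2 TECs. Without Ccl21a, 37.4% of the LSEC sum, the sums were 5155, 8453, 1111 and 5178. Pdpn had a log2 signal of 6.55 in LSECs and of 12.79, 8.59 and 12.07 in the TECs. The part of lymphatic cells or macrophages in the Lyve1 values was not tested.

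Mrc1, the mannose receptor, clears mannose-bearing glycoproteins and collagen chains and is shared with macrophages. Its log2 signal was 16.10 in LSECs, 13.63 in HAK1B TECs, 13.75 in Hepa1-6 TECs, 13.76 in KYN2 TECs and 2.73 in cultured cells (mm9 chr2:14253273-14253332, +). No other of the 10 genes was so even among the TEC arrays, which spanned 0.13 on the log2 scale. The differences from LSECs, -2.47, -2.34 and -2.34 (mean -2.38 ± 0.07, SD, n = 3), corresponded to 5.53-fold, 5.07-fold and 5.05-fold lower signal. None was past the rule of size, which needed 6.91-fold, 9.84-fold and 6.77-fold.

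Clec4g, a C-type lectin known as LSECtin, had a log2 signal of 18.04 in LSECs, 13.67 in HAK1B TECs, 14.26 in Hepa1-6 TECs, 14.17 in KYN2 TECs and 3.02 in cultured cells (mm9 chr8:3716182-3716241, -). The TEC arrays lay within 0.59 of each other and held 4.83%, 7.25% and 6.85% of the LSEC signal. The differences were -4.37, -3.78 and -3.87 (mean -4.01 ± 0.32, SD, n = 3), all called lower. A second, dimmer probe at chr8:3707133-3707192, which the design assigns to another transcript, read 9.35, 5.67, 8.41, 7.0 and 2.90 on the same arrays. It was called lower in HAK1B TECs, at -3.68, and not in the others, at -0.93 and -2.35. The Clec4g probes thus disagreed most in Hepa1-6 TECs, by 2.85.

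Fcgr2b, the inhibitory low-affinity IgG receptor that takes up small immune complexes in the sinusoid, read 15.86 in LSECs, 14.47 in HAK1B TECs, 13.17 in Hepa1-6 TECs, 13.48 in KYN2 TECs and 2.80 in cultured cells (mm9 chr1:172890988-172891047, -). As with Stab1, HAK1B TECs were the nearest to LSECs. The differences were -1.39, -2.70 and -2.38 (mean -2.16 ± 0.68, SD, n = 3), none past the limit. On the probe whose sequence is given above they were -1.24, -2.81 and -2.25, within 0.15 of the brightest probe in each comparison.

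Gpr182, an atypical receptor of endothelial cells that binds chemokines without signalling through G proteins, read 16.96 in LSECs, 12.40 in HAK1B TECs, 13.43 in Hepa1-6 TECs, 13.58 in KYN2 TECs and 3.17 in cultured cells (mm9 chr10:127186757-127186816, -). The signal in the TEC arrays was 4.23%, 8.63% and 9.62% of that in LSECs. Differences of -4.56, -3.53 and -3.38 (mean -3.83 ± 0.64, SD, n = 3) were all called lower, as were those of its second probe, -4.02, -3.63 and -2.99.

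Oit3, a secreted protein with a zona pellucida domain that is made in the liver, read 15.92 in LSECs, 10.89 in HAK1B TECs, 11.50 in Hepa1-6 TECs, 12.76 in KYN2 TECs and 5.54 in cultured cells (mm9 chr10:58886254-58886313, -). Its TEC arrays were spread more widely than those of any of the 10 genes but Lyve1, over 1.86, with KYN2 TECs highest. Differences of -5.02, -4.41 and -3.16 (mean -4.20 ± 0.95, SD, n = 3) were all called lower. The probe across the exon junction gave -4.37, -4.50 and -2.58, and the last of these was not past the limit of -2.76.

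Ehd3, a protein of the EHD family that returns cargo from endosomes to the surface, had the largest mean difference of the 10. Its log2 signal was 17.03 in LSECs, 11.42 in HAK1B TECs, 11.87 in Hepa1-6 TECs, 12.51 in KYN2 TECs and 4.01 in cultured cells (mm9 chr17:74181371-74181428, +). On the scanner's own linear scale, before any scaling between arrays, these were 117704, 2826, 3915, 3537 and 14.6 units. All 3 TEC arrays were called lower, at -5.60, -5.16 and -4.52 (mean -5.09 ± 0.54, SD, n = 3), which is 48.6-fold, 35.8-fold and 23.0-fold. From the lowest difference upward, Ehd3 stood at place 36 of 20298 genes in HAK1B TECs, 52 of 26322 in Hepa1-6 TECs and 96 of 19819 in KYN2 TECs.

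Dnase1l3, a secreted nuclease that digests DNA in chromatin and microparticles, was next. Its log2 signal was 14.55 in LSECs, 9.11 in HAK1B TECs, 9.86 in Hepa1-6 TECs, 9.71 in KYN2 TECs and 4.26 in cultured cells (mm9 chr14:8797719-8797778, -). The TEC arrays held 2.30%, 3.85% and 3.48% of the LSEC signal and were all called lower, at -5.45, -4.70 and -4.85 (mean -5.00 ± 0.40, SD, n = 3). It stood at places 42, 94 and 74 from the lowest in the 3 comparisons.

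**Figure D3:**
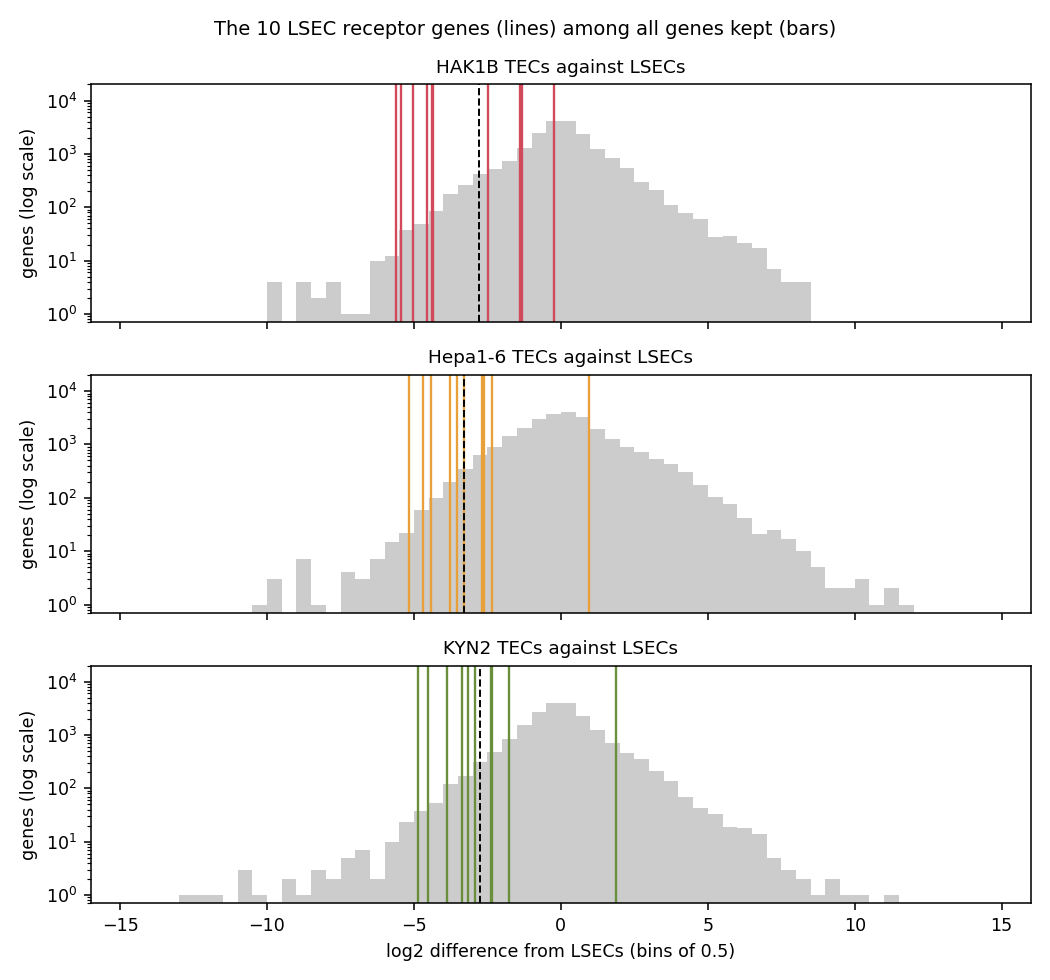
Number of genes (vertical axis, log scale) by log2 difference from LSECs (horizontal axis, bins of 0.5), with 1 panel per TEC array. Coloured lines are the 10 genes and the dashed line is the lower limit of the rule of size. In HAK1B TECs 6 lines lie left of the limit, in Hepa1-6 TECs 5 and in KYN2 TECs 6.

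As a summary, 0.709% of all genes lay below the median of the 10 genes in HAK1B TECs, 1.78% in Hepa1-6 TECs and 2.16% in KYN2 TECs. By probe, 13 of 18 were called lower in HAK1B TECs where 3.41% of all probes were, 10 of 18 in Hepa1-6 TECs against 1.94% and 11 of 18 in KYN2 TECs against 2.52%.

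Among the TEC arrays themselves the 10 genes differed less. Between HAK1B and KYN2 TECs, 1 of 10 was called, Lyve1, which was 2.10 lower in HAK1B TECs on the log2 scale, where 3.15% of 20000 genes were called lower and 2.84% higher. Oit3, at -1.86, did not reach the limit of -1.91. In Hepa1-6 against HAK1B TECs (1.54% lower, 5.0% higher of all genes) and Hepa1-6 against KYN2 TECs (1.6% lower, 4.67% higher), 0 of 10 were called. Stab1 and Fcgr2b were higher in HAK1B than in Hepa1-6 TECs by 1.30 and 1.31, while the other 8 genes were higher in Hepa1-6 TECs, among them Mrc1 by 0.12 and Lyve1 by 1.18. All 4 of these named genes are also found on macrophages, and they did not move in 1 direction between these arrays. The part of macrophages in these steps was not tested. None of these steps has a replicate.

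In cultured Hepa1-6 cells, 9 of the 10 genes were not well above background on their brightest probe, as were 23.6% of the 18457 genes well above background in LSECs. On the signal as read, all 10 were called lower, where 4.81% of 19921 genes were, and none higher, against 2.59%. A probe not above background gives only a bound. On the brightest probes, LSEC signal was at least 4330-fold higher for Clec4g, 2520-fold for Stab2, 2140-fold for Ehd3 and 2050-fold for Gpr182. The smallest bound of a brightest probe was 40.2-fold, for Lyve1. The Lyve1 bound is short of the 51.2-fold that a call needed here, so the Lyve1 call rests on signal not clear of background. Such a bound is the LSEC value over the dimmest signal that the cultured-cell array still held clear of its background, or over the probe's own signal where that was the higher. Stab1 was measured on both arrays, 9.05 lower in cultured cells. A dimmer Stab2 probe was also above background there, 9.68 lower or 820-fold, which is less than the bound of the brightest Stab2 probe. The second probes of Clec4g and Gpr182 gave bounds of 10.5-fold and 17.2-fold.

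With the 3 TEC arrays fitted as 1 class against the LSEC array in limma, which assumes that the lone LSEC array varies as the TECs do, 0 of 42112 probes had an adjusted p (Benjamini-Hochberg) under 0.05 (0% called). The smallest adjusted p was 0.443, shared by probes of Clec4g, Dnase1l3, Ehd3, Gpr182 and Stab2. At an unadjusted limma p under 0.05 there were 3581 probes, 8.50% of all, and 15 of the 18. Limma gave Ehd3 a difference of -5.09 with a 95% interval of -6.81 to -3.38, Dnase1l3 -5.00 (-6.52 to -3.47), Mrc1 -2.38 (-3.67 to -1.1), Stab1 -1.91 (-3.80 to -0.02) and Lyve1 0.88 (-1.68 to 3.44). These intervals are not adjusted for the number of probes, and the spread behind them is between tumors of 3 cell lines.

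Most genes shared by all endothelia read below LSECs in the TECs, 19, 19 and 16 of 20, though fewer were called. The medians of the 20 pan-endothelial genes were -2.23 in HAK1B, -2.46 in Hepa1-6 and -1.55 in KYN2 TECs, with 9, 3 and 3 of 20 called lower. The counts depended on the processing: they were 4 in HAK1B and 1 in KYN2 TECs with the 75th percentile, and 15 in Hepa1-6 and 7 in KYN2 TECs with normexp. The receptor for vascular endothelial growth factor, Kdr, was called lower in all 3, at -3.70, -3.48 and -3.24, as was Tek, the angiopoietin receptor, at -3.66, -4.58 and -3.30. Cd34, an adhesion molecule of capillaries and progenitors, was called higher in KYN2 TECs, at 2.87, with 2.81 and 1.53 in the other arrays. Plvap, Vwf and Emcn, all of vascular endothelium, were above LSECs in KYN2 TECs by 0.80, 0.53 and 0.15, without a call, and below them in the other TECs. Pecam1, the CD31 of the bead isolation, differed by -1.17, -1.95 and -0.09.

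Set against the pan-endothelial median of the same comparison, the median of the 10 genes was lower by a further -2.14 in HAK1B, -0.95 in Hepa1-6 and -1.50 in KYN2 TECs. Ehd3 was -3.37, -2.70 and -2.98 from it and Dnase1l3 -3.22, -2.24 and -3.30. Stab1 (0.91, -0.17 and -0.23) and Fcgr2b (0.84, -0.24 and -0.84) lay within 1 of the pan-endothelial median on either side, as did Mrc1 at -0.24, 0.12 and -0.79. Lyve1 was above it by 2.01, 3.43 and 3.43. In HAK1B TECs 6 of the 10 genes were lower than the lowest of the 20 pan-endothelial genes, in Hepa1-6 TECs 2 and in KYN2 TECs 4. The part of this lower endothelial signal in the values of the 10 genes was not tested.

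**Figure D4:**
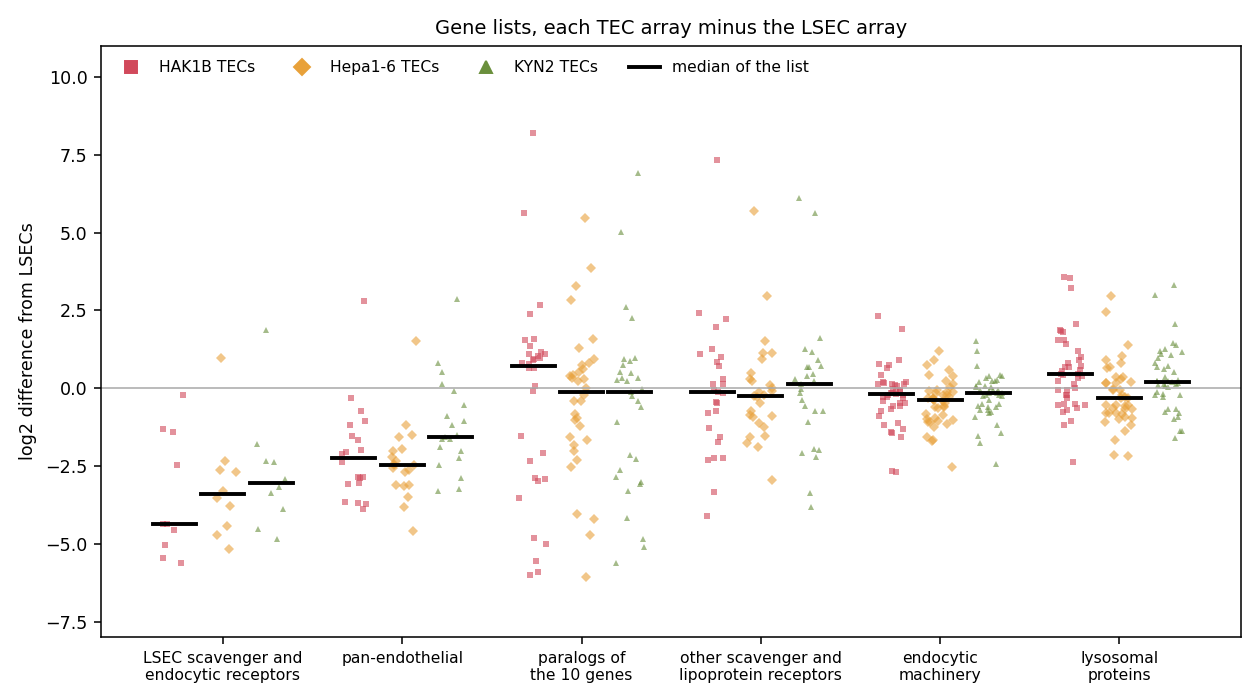
Log2 difference of each TEC array from the LSEC array (vertical axis) for every gene kept of 6 gene lists, with black bars for the list's median. The medians of the 10 LSEC genes (-4.37, -3.41 and -3.05) lie lowest, those of the pan-endothelial genes (-2.23, -2.46 and -1.55) next, and those of the endocytic machinery (-0.17, -0.37 and -0.15) near 0.

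Several of the 10 genes are shared with macrophages, whose markers moved in their own way. Among 17 macrophage and Kupffer cell genes, 6 were called lower in HAK1B TECs, 0 in Hepa1-6 TECs and 3 in KYN2 TECs. Clec4f, the lectin that defines Kupffer cells, differed by -5.56, -2.02 and -2.62 and Vsig4, a complement receptor of the same cells, by -4.00, -2.07 and -2.31. The general macrophage markers Adgre1 (0.04, -1.51 and -0.99), Csf1r (0.24, -0.90 and -1.0) and Cd68 (0.85, 0.12 and 1.25) differed less from LSECs. Of the 17 genes 8, 13 and 13 read below LSECs, with medians of 0.04, -1.51 and -0.99. The summed linear signal of the 17 genes was 1002356 in LSECs, 882610 in HAK1B TECs, 518159 in Hepa1-6 TECs and 596739 in KYN2 TECs, while that of the 10 LSEC genes was 993937, 103861, 96351 and 124975. The part of macrophages in the values of Stab1, Mrc1 and Fcgr2b was not tested.

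Neutrophil and hepatocyte genes also differed between the arrays. Of the neutrophil genes 12, 8 and 3 were called higher in HAK1B, Hepa1-6 and KYN2 TECs, with 1 called lower in KYN2 TECs, and the medians of those kept were 4.92, 4.07 and 0.88. The summed signal of the list of 14 was 92634 in LSECs and 227028, 87921 and 85442 in the TECs, but 1 probe, that of Csf3r, made up 96.5% of the LSEC sum and was also bright in cultured cells, at a log2 signal of 15.22. Without Csf3r the sums were 3222 in LSECs and 170139, 51122 and 12587 in the TECs. Of 18 hepatocyte genes 12 were called lower in HAK1B TECs, 0 in Hepa1-6 TECs and 9 in KYN2 TECs, with Alb at -6.46, 2.57 and -4.11, and 17, 10, 17 and 15 of them were well above background in LSECs, HAK1B, Hepa1-6 and KYN2 TECs. Their summed signal was 125797 in LSECs, 109181 in HAK1B TECs, 234526 in Hepa1-6 TECs and 89097 in KYN2 TECs, of which Trf, transferrin, gave 60.8%, 97.3%, 65.1% and 87.9%. Without Trf the sums were 49319, 2919, 81906 and 10775. Alb read 15.54 in Hepa1-6 TECs and 13.94 in cultured Hepa1-6 cells, and the part of cancer cells in these sums was not tested. B cell genes had 0 of 7 called in each TEC array, with medians of 0.44, -1.24 and 0.33 and a summed signal of 7807 in LSECs and 10437, 3321 and 8433 in the TECs. Stellate and fibroblast genes had 0 called lower and 1, 3 and 3 of 14 called higher, led by the collagen gene Col1a1, at least 26.7-fold, 71.1-fold and 112-fold higher, and their summed signal was 14041 in LSECs and 25558, 49108 and 38925 in the TECs (4601, 6800, 36129 and 16681 without Acta2, smooth muscle actin). Dcn, decorin, read 14.72 in Hepa1-6 TECs, 11.44 in LSECs and 16.74 in cultured Hepa1-6 cells, and the part of cancer cells in the Hepa1-6 sum was not tested. Dendritic cell genes split in both directions, with 2, 1 and 0 of 7 called lower, 2, 1 and 1 called higher and a summed signal of 121823, 100332, 60049 and 62706. Siglech, a lectin of plasmacytoid dendritic cells, gave 97.8% of the LSEC sum and also read 15.25 in cultured cells, and without it the sums were 2650, 28373, 9285 and 8573. Itgax, the integrin chain CD11c, was called higher in all 3 TEC arrays, at 6.23, 4.58 and 4.43. The part of any of these cells in the values of the 10 genes was not tested.

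Paralogs of the 10 genes were mostly at other levels of difference. Of 36 paralogs on the array, 9 were called lower in HAK1B TECs, 4 in Hepa1-6 TECs and 8 in KYN2 TECs, and the medians of those kept were 0.71, -0.11 and -0.12, of which the second and the third were 0.26 and 0.03 with scaling to the 75th percentile. The family of Ehd3 did not share its lower signal. Ehd1 differed by 1.11, 0.44 and 0.93, Ehd2 by 2.38, 0.95 and 2.60 and Ehd4 by 0.78, -0.42 and 0.34. None of them was called. Nor were the other Fc receptors lower on these arrays. Fcgr1 differed by 1.58, 0.32 and 0.34, Fcgr3 by 1.55, 0.75 and 0.97, Fcgr4 by 0.96, 0.52 and 0.22, and the common chain Fcer1g by 1.37, 0.00 and 0.75, whereas Fcgrt, which recycles IgG inside cells, was at -2.34, -2.29 and -2.27. In the family of Dnase1l3, Dnase1l1 differed by 1.1, -0.82 and 0.88 and Dnase1l2 by -0.08, -0.97 and -0.42, while Dnase1 was well above background in Hepa1-6 TECs alone of the endothelial arrays, at least 1.31-fold higher than in LSECs. The lysosomal Dnase2a, a nuclease of another family that was put in the same list, was at -1.52, -1.83 and -2.15.

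Atypical chemokine receptors, which like Gpr182 bind chemokines without G protein signalling, were divided. Ackr4 was called lower in all 3 TEC arrays, at -5.01, -6.07 and -4.83, as was Ackr1 at -2.91, -4.21 and -3.29, whereas Ackr2 was called in HAK1B TECs alone (-2.89, -2.53 and -0.60) and Ackr3 was at 2.69, 1.29 and 2.27. Of the relatives of the mannose receptor, Pla2r1 was called lower in all 3 arrays, at least 45.0-fold in HAK1B TECs, at least 34.4-fold in KYN2 TECs and by -4.72 in Hepa1-6 TECs, where it was measured. Ly75, an endocytic receptor of dendritic cells, was called higher in Hepa1-6 TECs, at least 14.5-fold, with a log2 signal of 8.66. It read 9.74 in cultured Hepa1-6 cells, 5.45 in HAK1B TECs and, not well above background, 4.81 in LSECs and 4.70 in KYN2 TECs, and the part of cancer cells in the Hepa1-6 value was not tested. Mrc2 was near background on all endothelial arrays, with log2 signals of 2.74 to 3.77. C-type lectins moved both ways. Clec4a2 was called lower in all 3 arrays but was not well above background in any of them. Its bounds were at least 5.98-fold, 16.1-fold and 4.62-fold. Those of HAK1B and KYN2 TECs are short of the limits of 6.91-fold and 6.77-fold, so these calls rest on signal not clear of background. Clec4e, a receptor of activated myeloid cells, was called higher in all 3 arrays (8.19, 5.47 and 6.91) and Clec4d in HAK1B and KYN2 TECs (5.63, 3.30 and 5.01), while Cd209b and Cd209f were called lower in those same arrays (-4.82 and -5.60 for Cd209b, -6.01 and -4.18 for Cd209f) and were at -1.22 and -1.65 in Hepa1-6 TECs. Cd44, a hyaluronan receptor with a link domain like that of Lyve1, differed by 0.93, 0.62 and 0.51.

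Scavenger and lipoprotein receptors outside the 10 genes were not lower as a group. Of 29 on the array, 2, 0 and 2 were called lower and 1, 1 and 2 higher, with medians of -0.12, -0.24 and 0.14, and the first of these was 0.09 when arrays were scaled to the 75th percentile. Those called lower were Cd163 (-4.10, -1.75 and -3.38) and Marco (-3.34, -1.52 and -3.82), both of macrophages. Olr1, a receptor for oxidised low-density lipoprotein, was called higher in HAK1B and KYN2 TECs, at least 35.6-fold and 11-fold, and Vldlr, the very-low-density lipoprotein receptor, in Hepa1-6 and KYN2 TECs, at least 39.6-fold and 52.9-fold. Scarb2, a lysosomal receptor, was at -1.73, -2.96 and -2.21 without a call.

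Components that the receptors use to enter the cell had medians near 0. Of 43 genes of the endocytic machinery, such as clathrin, its adaptors and the early endosomal Rab proteins, 0 were called in either direction in any TEC array, with medians of -0.17, -0.37 and -0.15, the last of which was 0.03 with the 75th percentile. Under normexp 2, 1 and 1 were called lower. Cav2, a caveolin, had the lowest mean (-2.68, -2.52 and -1.45), and Dab2, a clathrin adaptor, was at 0.15, -0.83 and -0.22. Among 42 lysosomal genes 0 were called lower in the TECs and 3, 0 and 2 higher, among them Galns, a sulfatase of glycosaminoglycans, at 3.59, 2.44 and 3.32 and Cd63, a lysosomal membrane protein, at 3.53, 2.95 and 3.01. Their medians were 0.45, -0.30 and 0.20.

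Ligands of the receptors and enzymes of hyaluronan turnover had medians of -0.23, 0.12 and 0.07 over the genes kept of 25, with 2, 2 and 1 called lower and 2, 1 and 2 higher. Hyal2, a hyaluronidase at the cell surface, was called lower in HAK1B TECs (-3.11) and was at -2.44 and -2.36 in the others. Tnfaip6, which cross-links hyaluronan, was called higher in HAK1B and KYN2 TECs, at least 13.4-fold and 6.45-fold, and was at least 2.81-fold higher in Hepa1-6 TECs. The KYN2 bound is short of the limit of 6.79-fold, as Tnfaip6 was not well above background in LSECs. Tgfbi, a matrix protein that Stab1 takes up, was called higher in HAK1B TECs (3.61, with 1.41 and 0.85 in the others).

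Outside the 10 genes, the pattern most like theirs was sought among 18447 genes well above background in LSECs, as the smallest root mean square distance of the 4 log2 differences from LSECs to the median profile of the 10 (-4.37, -3.41, -3.05 and -13.04). The 8 nearest were Bmp2 (0.30), Ptprb (0.34), Kdr (0.42), Cd5l (0.50), Gm13889 (0.57), Cd55 (0.67), Fam167b (0.74) and Fam174b (0.78). Bmp2, a growth factor made by LSECs, differed by -3.78, -3.42 and -2.94 in the TECs. The choice rests on the cultured-cell difference, which is below background for all 8 and for 9 of the 10 genes and so has no order beyond its bound. With the 3 TEC differences alone, an alternative chosen after seeing the data, 0 of these 8 were among the 8 nearest, which were led by Cyp2c37 (0.17), Tmem132e (0.18) and Dpp4 (0.22), and the former 8 stood at places 14 to 83.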

How the data were processed

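The authors labelled RNA with Cy3 and hybridised it to Agilent 60-mer mouse arrays, which were read by Agilent Feature Extraction (9.5.1.1 per the labels). The header of the scanner output gives another version. They deposited each spot's intensity on a linear scale, background-subtracted, with flags, and a table of normalized intensity values. The array design uses mm9. After removal of control spots, repeated spots of a probe were averaged. Quantile normalization of log2 intensity took in all 5 arrays, whereas the methods normalized pairs of samples, and 4460 lincRNA probes were left out. The rule of size of the methods gave calls, on a gene's brightest probe. The only test was limma 3.58.1 (R 4.3.3), with 2 residual degrees of freedom and p-values adjusted by Benjamini-Hochberg; it was tested on simulated data. Other steps used Python 3.11.15.

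Samples were grouped by their titles. The 10 genes and all gene lists were chosen with earlier results of these data known. Besides all 10 genes, defining markers and paralogs, at most 3 genes at either end of a list by mean TEC difference and the 8 nearest in pattern were named. Dab2, Emcn, Acta2, Dcn and the genes nearest by the TEC differences alone lay outside this rule and were chosen after their values were seen. One gene that the rule names is not reported here. Alternatives were 75th-percentile scaling, quantile normalization by pair or over the endothelial arrays, normexp, the deposited table, other flag filters, other sizes, the median over probes and each TEC array left out.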

Additional observations from a re-analysis of the deposited data

Results flagged for a closer look

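Lyve1 differed from LSECs by -0.22 in HAK1B TECs, 0.97 in Hepa1-6 TECs and 1.88 in KYN2 TECs on the log2 scale. It was picked out because the TEC arrays lay on both sides of the LSEC array, below it in HAK1B TECs and above it in the other two. The difference between the TEC arrays was not tested, since each is 1 array, and it rests on 1 probe. Over the 7 ways of scaling and summarising, main values included, the values were -0.22 to -0.13, 0.88 to 0.98 and 1.82 to 1.98.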

How the results depend on the processing

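No paired analysis was possible because every group was a single array, and a slide block could not be fitted because no slide held LSECs together with TECs. Of 134 values of the 10 genes as a group, or of the limma fit, under an alternative, 120 stayed with the reported value and 0 changed direction. A count within 1.5-fold of the reported one, such as 4 for 6, was taken as staying, and counts have no direction. In Hepa1-6 TECs 5 of 10 genes were lower as reported, and 9 with normexp, a ratio of 0.66 alone or a ratio of 0.25. Of all 26322 genes, 537, 760, 8138 and 2290 were lower in that order. The count was 6 with the 75th percentile, quantile normalization by pair and the deposited table, where 487, 528 and 534 genes were lower. The stricter flag filter and no filter also gave 6, where 458 of 18068 and 631 of 33003 genes were lower. In HAK1B TECs 7 were lower with normexp and 9 with the ratio of 0.66 alone, against 6, where 815 and 5469 of 20298 genes were. With the ratio alone 1 gene, Lyve1, was higher in Hepa1-6 TECs and 1 in KYN2 TECs. Of all genes, 9271 of 26322 and 5149 of 19819 were higher by that ratio. For cultured cells the median was -12.07 with the 75th percentile, -9.96 with normexp, -10.30 as the median over probes and -9.05 where both arrays had to be above background, which left 1 gene, Stab1, called lower. Centring on the pan-endothelial genes, added after seeing the data, gave medians of -2.14, -0.95, -1.50 and -4.31 for HAK1B, Hepa1-6 and KYN2 TECs and cultured cells. In KYN2 TECs 4 genes were lower with the 75th percentile and 8 with normexp, against 6, where 603 and 573 of 19819 genes were. The median over the 10 genes of the mean TEC difference was -3.68, and -3.94 to -3.28 without each TEC array in turn. In limma 0 probes and 0 of the 18 probes passed under every setting run, with a smallest adjusted p of 0.0576 over all probes and 0.124 over the 18 with normexp. The 75th percentile moved the median of all genes to 0.43 in Hepa1-6 TECs and 0.11 in cultured cells. Of all calls in Hepa1-6 TECs 31.0% were lower, 43.4% with normexp. Among the other lists, the pan-endothelial genes called lower were 4 of 20 in HAK1B and 1 in KYN2 TECs with the 75th percentile (9 and 3 as reported) and 15 in Hepa1-6 and 7 in KYN2 TECs with normexp (3 and 3 as reported), and the macrophage genes 3 in Hepa1-6 and 6 in KYN2 TECs with normexp (0 and 3 as reported). The cause of each shift was not tested, apart from the stricter flag filter, which left fewer genes. Signal near background limits the cultured-cell differences to bounds.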
